A study of Mus musculus with 12 samples.

Results

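The genes described here are 10 genes that mark mast cells in mouse tissue: the granule proteases Mcpt1, Mcpt2, Mcpt4, Cma1, Cpa3 and Tpsb2, the receptor genes Kit, Ms4a2 and Fcer1a, and the histamine-making enzyme gene Hdc. They were chosen by symbol, and every non-control probe whose RefSeq accession leads to one of those symbols was taken. This gave 10 probes for 9 of the 10 genes, on an array that carries 18539 genes with a symbol. Cma1 has 2 probes, and Kit, the receptor for stem cell factor, has none matched by accession and was not analysed here. Ms4a2 has a probe but did not pass the filter on dim signal, so 8 of the 10 genes entered the test across 19145 genes.

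RNA came from the distal colon of female BALB/c mice aged 5 to 7 weeks at the start and was collected on day 100, with 3 one-colour arrays in each of 4 groups. The AOM/DSS group had 1 injection of azoxymethane (AOM, a colon carcinogen) at 12.5 mg/kg, and dextran sulfate sodium (DSS, which injures the colon lining) in the drinking water for 5 days in each of 3 cycles of 21 days from day 5. The AOM group had 10 mg/kg of azoxymethane weekly, 6 times, the DSS group had the 3 DSS cycles alone, and the control group carries no agent in the labels. The AOM/DSS samples were clipped neoplasms kept in RNA storage solution, whereas the tissue of the other 3 groups was scraped with a slide into Trizol. Treatment and collection method cannot be told apart in any comparison with AOM/DSS. Nothing in the labels ties each replicate to its own mouse, so the p-values cover the spread among these arrays, part of which may be technical.

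Mast cells are immune cells of the gut wall that store histamine and proteases in granules and release them when IgE bound to its receptor is crosslinked. In mice, Mcpt1 and Mcpt2 encode chymases typical of mast cells within the mucosa, whereas Mcpt4, Cma1, Cpa3 and Tpsb2 encode the chymases, carboxypeptidase and tryptase typical of mast cells in connective tissue. Fcer1a and Ms4a2 encode the alpha and beta chains of the IgE receptor, and Hdc encodes histidine decarboxylase, which makes histamine and is also expressed by neutrophils and immature myeloid cells of mice.

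Mcpt1, Mcpt2, Mcpt4 and Cma1 lie near each other on chromosome 14, between position 55941451 at the start of Cma1 and position 56062310 at the end of Mcpt4 in GRCm38.p6. The 250 bases before the start sites of Mcpt1 and Mcpt4 are shown because these 2 genes had the most similar signal over the arrays, with Cma1 from the same locus and Cpa3 from chromosome 3 beside them. The windows are RefSeq's, written 5′ to 3′ on the gene's own strand. They are chr14:56017714-56017963 on the plus strand for Mcpt1, and on the minus strand chr14:56062311-56062560 for Mcpt4, chr14:55944676-55944925 for Cma1 and chr3:20242182-20242431 for Cpa3. Capitals mark GATAA, the core bound by GATA factors, or TTATC, which is GATAA on the other strand, and CAGAC, the short element bound by SMAD factors.
Mcpt1: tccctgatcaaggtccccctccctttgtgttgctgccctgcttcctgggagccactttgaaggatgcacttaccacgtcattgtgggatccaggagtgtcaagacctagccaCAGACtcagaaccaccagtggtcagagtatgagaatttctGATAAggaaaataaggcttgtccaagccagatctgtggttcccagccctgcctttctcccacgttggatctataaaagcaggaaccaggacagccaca
Mcpt4: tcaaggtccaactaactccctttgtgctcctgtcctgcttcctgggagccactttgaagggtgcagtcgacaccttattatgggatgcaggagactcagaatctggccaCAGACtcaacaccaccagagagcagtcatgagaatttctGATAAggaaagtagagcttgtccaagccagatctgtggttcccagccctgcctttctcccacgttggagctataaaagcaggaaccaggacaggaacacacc
Cma1: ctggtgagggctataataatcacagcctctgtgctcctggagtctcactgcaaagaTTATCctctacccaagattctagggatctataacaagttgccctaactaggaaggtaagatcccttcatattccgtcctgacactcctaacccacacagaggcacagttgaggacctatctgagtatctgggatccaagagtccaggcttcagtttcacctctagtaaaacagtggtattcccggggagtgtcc
Cpa3: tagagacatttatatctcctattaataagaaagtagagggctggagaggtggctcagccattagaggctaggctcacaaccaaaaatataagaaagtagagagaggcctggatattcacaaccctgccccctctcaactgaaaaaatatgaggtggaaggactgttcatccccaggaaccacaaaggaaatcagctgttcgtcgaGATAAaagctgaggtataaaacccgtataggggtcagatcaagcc

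Aligned end to end, the Mcpt1 and Mcpt4 windows were identical at 207 of 254 aligned positions (81.5%), against 140 of 275 (50.9%) for Mcpt1 with Cma1 and 118 of 261 (45.2%) for Mcpt1 with Cpa3. In both Mcpt1 and Mcpt4, GATAA (position -98 and -102 from the start site) follows CAGAC (position -138 and -141). GATAA on either strand was in 6 of the 8 genes that have a window, and CAGAC on either strand in Mcpt1, Mcpt4 and Hdc. Over all 32851 RefSeq windows, which run on to 50 bases after the start site, 25.4% hold GATAA and 49.6% hold CAGAC. The E-box CACNTG, in 44.9% of all windows, was in those of Kit and Fcer1a, and the SMAD palindrome GTCTAGAC, in 0.213% of all windows, was in none of the 8 genes. These are matches of letters only, and a window with no match says nothing about the factor.

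Signals are given as the log2 of an array's processed signal relative to that array's own 75th percentile, so 0 is the 75th percentile and each unit is a doubling. The 75th percentile itself was 1115 to 1186 intensity units on the AOM/DSS arrays, against 393.7 to 694.2 on the other arrays, and the share of probes well above background was 62.6% to 66.2% for AOM/DSS, against 52.1% to 59.3% for the others. No spot was saturated. The 12 arrays lie on 3 slides: AOM/DSS replicates 1 and 2 share a slide with AOM replicates 1 and 2, AOM/DSS replicate 3 with the 3 controls, and AOM replicate 3 with the 3 DSS arrays. Transcripts of exocrine pancreas were raised on DSS replicate 1 and on all 3 control arrays. Their mean log2 signal over 9 markers was 3.74 on DSS replicate 1 and 2.04, -0.81 and 6.53 on control replicates 1 to 3, against -4.50 to -3.58 on the AOM/DSS and AOM arrays. In a bulk sample, fewer cells of a type and less RNA per cell cannot be told apart.

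**Figure D1:**
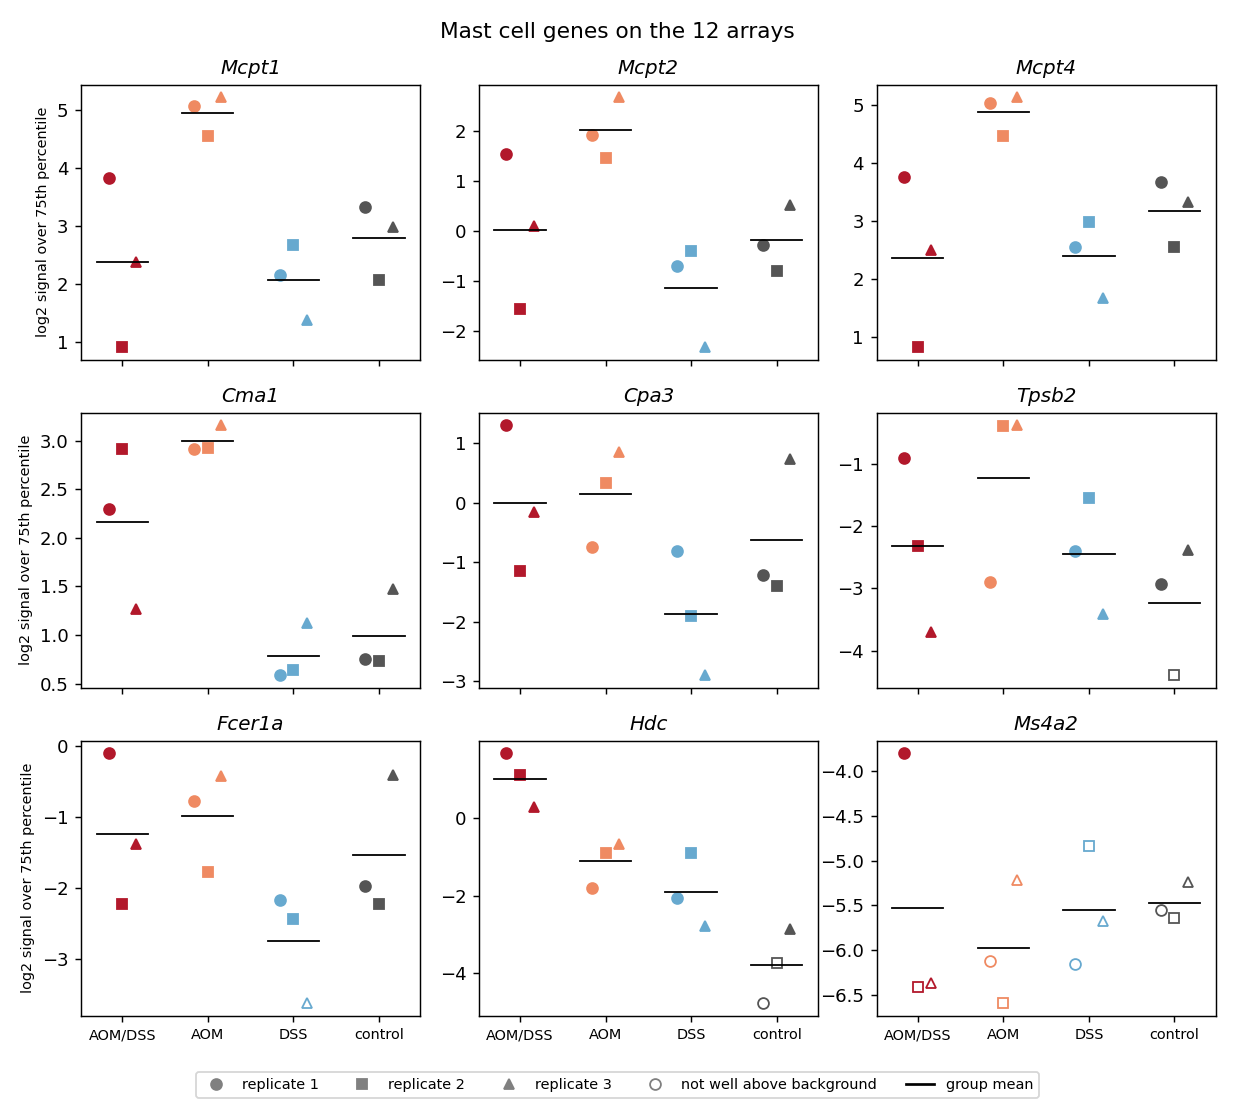
Log2 signal over the array's 75th percentile (vertical axis, own scale per gene) of 9 mast cell genes in the AOM/DSS, AOM, DSS and control groups; points are arrays, lines are group means and open symbols are arrays where the probe was not well above background. The 3 AOM arrays lie above all DSS and control arrays for Mcpt1, Mcpt2, Mcpt4 and Cma1, and the 3 AOM/DSS arrays lie above all others for Hdc.

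The mucosal chymase gene Mcpt1 was highest in AOM. Its log2 signal was 3.83, 0.90 and 2.38 on AOM/DSS arrays 1 to 3, 5.06, 4.56 and 5.22 on AOM arrays, 2.15, 2.67 and 1.38 on DSS arrays, and 3.33, 2.06 and 2.98 on control arrays. Every AOM array was above every array of the other groups, while AOM/DSS spread over the whole range of DSS and control. Group means were 2.37 ± 1.46 in AOM/DSS, 4.95 ± 0.35 in AOM, 2.07 ± 0.65 in DSS and 2.79 ± 0.65 in control (SD, n = 3 each). By mean the order was AOM, control, AOM/DSS and DSS, and no pair among the last 3 was called by limma.

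Mcpt2, the other mucosal chymase gene, had a log2 signal of 1.53, -1.57 and 0.09 in AOM/DSS, 1.92, 1.47 and 2.67 in AOM, -0.71, -0.41 and -2.33 in DSS, and -0.29, -0.81 and 0.52 in control. AOM was above DSS and control on every array and overlapped AOM/DSS through AOM/DSS replicate 1. Mcpt4, a chymase gene of connective tissue mast cells, had 3.75, 0.82 and 2.49 in AOM/DSS, 5.02, 4.45 and 5.12 in AOM, 2.55, 2.97 and 1.67 in DSS, and 3.66, 2.54 and 3.32 in control. Its arrays fell in nearly the same order as those of Mcpt1, with the 3 AOM arrays highest and AOM/DSS replicate 2 lowest.

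Cma1, the remaining chymase gene, was high in both AOM-treated groups. Its log2 signal was 2.29, 2.92 and 1.26 in AOM/DSS, 2.92, 2.93 and 3.16 in AOM, 0.59, 0.64 and 1.13 in DSS, and 0.76, 0.73 and 1.47 in control. The AOM arrays did not overlap DSS or control, and AOM/DSS replicate 3 lay within the control range. The second Cma1 probe followed the first with r = 0.9972 over the 12 arrays, and in a fit of 25476 probes it gave a log2 difference of 1.31 ± 0.38 (SE) for AOM/DSS against control and 2.07 ± 0.38 for AOM against control, with limma adjusted p of 0.0225 and 0.00668.

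Cpa3, the mast cell carboxypeptidase gene, had a log2 signal of 1.30, -1.15 and -0.15 in AOM/DSS, -0.75, 0.34 and 0.86 in AOM, -0.81, -1.91 and -2.90 in DSS, and -1.22, -1.41 and 0.74 in control. Only DSS and AOM did not overlap. The tryptase gene Tpsb2 had -0.91, -2.32 and -3.70 in AOM/DSS, -2.89, -0.41 and -0.39 in AOM, -2.40, -1.55 and -3.41 in DSS, and -2.93, -4.39 and -2.39 in control, where replicate 2 was not well above background. All 4 groups overlapped for Tpsb2, and AOM replicate 1 stood apart from the other AOM arrays.

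Of the receptor genes, Fcer1a had a log2 signal of -0.11, -2.22 and -1.38 in AOM/DSS, -0.78, -1.78 and -0.42 in AOM, -2.17, -2.43 and -3.62 in DSS, and -1.98, -2.23 and -0.42 in control. The 3 DSS arrays were below the 3 AOM arrays, and DSS replicate 3 was not well above background. Ms4a2 was well above background on AOM/DSS replicate 1 alone, at -3.80, and its values on the other arrays ran from -6.60 to -4.83. It has no test.

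Hdc had a different order from the proteases. Its log2 signal was 1.67, 1.10 and 0.28 in AOM/DSS, -1.79, -0.90 and -0.66 in AOM, -2.05, -0.90 and -2.79 in DSS, and -4.78, -3.73 and -2.87 in control, where replicates 1 and 2 were not well above background. The 3 AOM/DSS arrays were above all others and the 3 control arrays below all others. Group means were 1.02 ± 0.70 in AOM/DSS, -1.12 ± 0.60 in AOM, -1.91 ± 0.96 in DSS and -3.79 ± 0.96 in control (SD, n = 3 each).

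**Figure D2:**
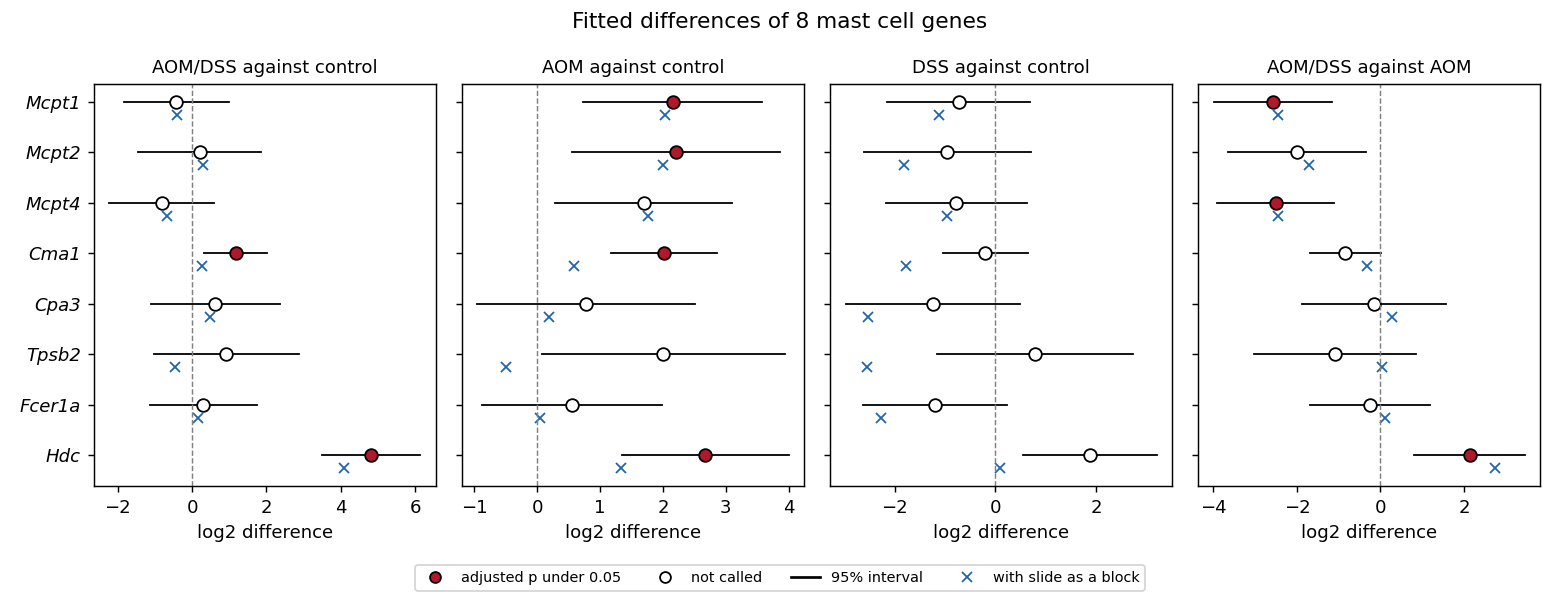
Fitted log2 difference (horizontal axis) of 8 mast cell genes in 4 comparisons with its 95% interval; filled circles have a limma adjusted p under 0.05 over all genes, and crosses are the differences with slide as a block. AOM against control holds 4 filled circles, all above 0, and DSS against control holds none.

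In AOM against control, 4 of the 8 tested genes were higher and none lower at a limma adjusted p under 0.05, while 32.5% of all genes were called in either direction, 14.8% higher and 17.7% lower. Mcpt1 was higher by 2.15 ± 0.64 (log2 difference ± SE, adjusted p = 0.0291), Mcpt2 by 2.21 ± 0.75 (adjusted p = 0.0448), Cma1 by 2.01 ± 0.38 (adjusted p = 0.00792) and Hdc by 2.68 ± 0.60 (adjusted p = 0.0123). Mcpt4 was 1.69 ± 0.64 and Tpsb2 2.01 ± 0.88, with adjusted p of 0.0626 and 0.0976. Cpa3 (0.78) and Fcer1a (0.55) were also not called. The median difference of the 8 genes was 2.01, against -0.01 over all genes.

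The calls of Mcpt1 and Mcpt2 were lost when any 1 of several arrays was left out, while their differences stayed near those above. Mcpt1 missed the threshold without AOM replicate 1, 2 or 3 or without control replicate 1 or 2 (limma adjusted p 0.0554 to 0.0987), and Mcpt2 without any AOM array, control replicate 1 or 2 or AOM/DSS replicate 3 (0.0591 to 0.131). Mcpt4 passed without AOM/DSS replicate 1 (adjusted p = 0.0348) or replicate 2 (0.0277), and Tpsb2 passed without AOM replicate 1, at 2.84 (0.0362). No slide holds both AOM and control. None of the 8 was called with slide as a block, and 0.0209% of all genes were. Mcpt1 was then 2.03, Mcpt2 2.00, Cma1 0.59 and Hdc 1.34, with adjusted p of 0.396 to 0.539. Tpsb2 was then -0.50, on the other side of 0. Mcpt2 also missed the threshold with quantile normalization (adjusted p = 0.0574), the authors' series matrix (0.0577), no filter (0.067) or normexp background correction (0.0658), and Mcpt4 passed with normexp (0.0409) or median scaling (0.0433). Hdc was 0.41 with normexp (adjusted p = 0.579). Markers of fibroblasts were also higher in AOM, 6 of 10 called, with a summed linear signal of 133 to 190 in AOM and 26.1, 14.3 and 167 on control replicates 1 to 3, so control replicate 3 stood apart. Macrophage markers were called higher in 6 of 7, with sums of 27.8 to 53.7 in AOM and 2.38 to 18.0 in control, and endothelial markers in 4 of 8, with sums of 5.40 to 7.78 in AOM and 2.26 to 6.38 in control. Smooth muscle markers were called higher in 2 of 9, with sums of 69.8 to 99.2 in AOM and 22.2 to 75.7 in control. The part of these cells in the mast cell values was not tested.

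In AOM/DSS against control, 2 of the 8 were higher and none lower, beside 34.7% of all genes called, 17.2% higher and 17.4% lower. Hdc was higher by 4.81 ± 0.60 (limma adjusted p = 0.000289) and Cma1 by 1.17 ± 0.38 (adjusted p = 0.0359). The other 6 genes lay between -0.82 (Mcpt4) and 0.92 (Tpsb2) with adjusted p of 0.349 to 0.853. The median difference of the 8 was 0.47, against 0.03 over all genes. AOM/DSS and control meet on 1 slide only, so with slide as a block the difference is that of AOM/DSS replicate 3 from the 3 controls. Hdc was then 4.07 (adjusted p = 0.0206). With normexp it was 2.29. Cma1 was 0.28 with slide as a block (adjusted p = 0.7). It also missed the threshold without AOM/DSS replicate 1 or 2, AOM replicate 2 or control replicate 1 or 2 (values 0.79 to 1.17, adjusted p 0.0506 to 0.131), and with median scaling (0.0736).

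By summed signal, neutrophil markers moved with Hdc between groups and in array order within AOM and DSS, and not within AOM/DSS. All 9 measured neutrophil markers were called higher in AOM/DSS against control, where 17.2% of all genes were. In AOM against control 8 of 9 were called higher, where 14.8% of all genes were. Mmp8, 1 of the 9, passed the filter only through AOM/DSS, the group where it is high. Its call in AOM/DSS is therefore not independent of the filter. The summed linear signal of the 9 was 67.5 to 213 in AOM/DSS, 9.05 to 22.4 in AOM, 2.21 to 22.8 in DSS and 0.470 to 1.01 in control. On AOM/DSS replicates 1, 2 and 3 the sums were 67.5, 135 and 213, where Hdc was 1.67, 1.10 and 0.28, so the array with most neutrophil signal had the least Hdc of that group. The sums were 4.34, 22.8 and 2.21 on DSS replicates 1 to 3 and 9.05, 19.4 and 22.4 on AOM replicates 1 to 3. By these sums the arrays of both groups fell in the order of their Hdc signal. By the mean log2 signal of the markers, the DSS arrays kept that order and the AOM arrays did not. That mean was -1.68, -0.98 and -1.09 on AOM replicates 1 to 3, where Hdc was highest on replicate 3. Control replicates 1 to 3 had 0.636, 0.470 and 1.01, and replicate 3 was also the highest control for Hdc. The 3 genes nearest to Hdc over the 12 arrays, outside the 10, were Nlgn2 (r = 0.984), Ncbp1 (r = 0.980) and 2700081O15Rik (r = 0.975). Of 7 listed basophil markers, 4 were tested. Among the proteases, Mcpt8 was well above background on 0 of 12 arrays and Prss34 on 3. Cd200r3, which basophils and mast cells express, passed that mark on 3 AOM/DSS arrays and on 0 arrays of the other groups. Cd200r3 passed the filter only through AOM/DSS, the group where it is high, so its call against AOM is not independent of the filter. Its level in AOM/DSS exceeded that in AOM at least 1.49-fold, while its difference from control was not called (0.83, limma adjusted p = 0.434). Il3ra, Itga2b and Il13 were called lower in AOM/DSS against AOM, and Il13 also against control. The summed linear signal of the 4 tested basophil markers was 1.20 to 1.57 in AOM/DSS, 1.94 to 2.85 in AOM, 1.49 to 2.70 in DSS and 1.45 to 1.68 in control. The part of neutrophils and basophils in the Hdc signal was not tested.

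**Figure D3:**
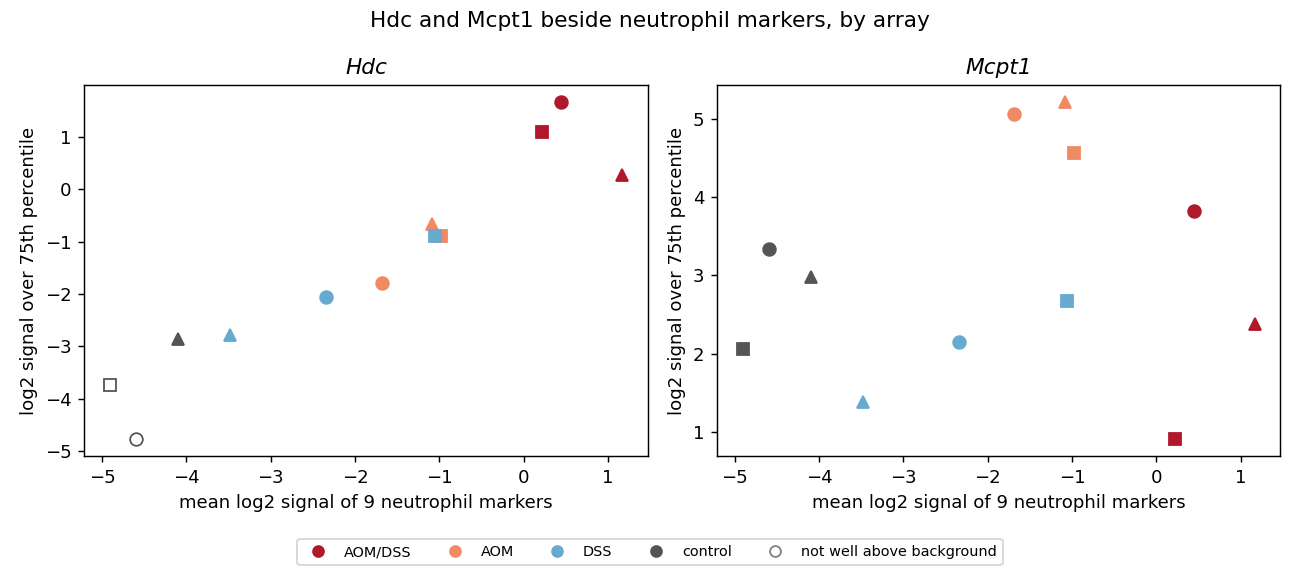
Log2 signal of Hdc (left) and Mcpt1 (right) on each array (vertical axis) against the mean log2 signal of 9 neutrophil markers (horizontal axis); colours are groups, and the marker shape gives the replicate. AOM/DSS arrays lie at 0.222 to 1.17 on the horizontal axis and control arrays at -4.91 to -4.10. Hdc is highest in AOM/DSS and lowest in control while Mcpt1 is not. Among the 3 AOM/DSS arrays Hdc does not follow the markers, and among the 3 DSS arrays it has their order.

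In AOM/DSS against AOM, 1 of the 8 was higher and 2 were lower, beside 37.1% of all genes called, 19.5% higher and 17.6% lower. Hdc was higher by 2.14 ± 0.60 (limma adjusted p = 0.0211). Mcpt1 fell by 2.57 ± 0.64 (adjusted p = 0.0142) and Mcpt4 fell by 2.51 ± 0.64 (adjusted p = 0.0149). Mcpt2 was -2.00 ± 0.75 (adjusted p = 0.0567) and Cma1 -0.84 ± 0.38 (adjusted p = 0.102), and Cpa3, Fcer1a and Tpsb2 were -0.15, -0.24 and -1.08. The median of the 8 was -0.96, against -0.04 over all genes. These groups meet on 1 slide, with 2 arrays each, and the difference with slide as a block is the difference there. Mcpt1 was then -2.44, Mcpt4 -2.45 and Hdc 2.74. Hdc stayed called (adjusted p = 0.0434), and Mcpt1 and Mcpt4 did not (0.0762 and 0.0738). Hdc missed the threshold without AOM replicate 1 or AOM/DSS replicate 1 or 2 (adjusted p 0.0567 to 0.0781), and with normexp (0.0621). Mcpt2 passed without AOM/DSS replicate 1 (-2.76, adjusted p = 0.0316) or DSS replicate 3 (0.0467) or with the filter on all 12 arrays (0.0446), and Cma1 without AOM/DSS replicate 2 (-1.22, adjusted p = 0.0401). Median scaling, which moved the median of all genes to -0.36, added Mcpt2 and Cma1 to the lower calls.

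In AOM/DSS against DSS, 2 of the 8 were higher and none lower, beside 35.8% of all genes called, 17.6% higher and 18.2% lower. Hdc was higher by 2.93 ± 0.60 (limma adjusted p = 0.00564) and Cma1 by 1.38 ± 0.38 (adjusted p = 0.0198). Cpa3 was 1.88 ± 0.78 and Fcer1a 1.50 ± 0.65, with adjusted p of 0.0825 and 0.091. Without DSS replicate 1, Cpa3 was called at 2.41 (adjusted p = 0.04). Cma1 missed the threshold without AOM/DSS replicate 1 or 2 or DSS replicate 2 (adjusted p 0.0579 to 0.0689). No slide holds both groups, and neither call held with slide as a block (adjusted p = 0.0881 for Hdc and 0.0799 for Cma1).

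In DSS against control, none of the 8 passed limma's threshold and 1, Hdc, had an unadjusted p under 0.05 (1.88 ± 0.60, adjusted p = 0.156). Over all genes 0.293% were called and 21.2% had an unadjusted p under 0.05. Hdc passed without control replicate 3, at 2.34 (adjusted p = 0.0499). Differences of the other 7 lay between -1.25 (Cpa3) and 0.79 (Tpsb2). In DSS against AOM, none of the 8 passed and 6 had an unadjusted p under 0.05, while 0.0104% of all genes were called and 14.8% had an unadjusted p under 0.05. The differences of all 8 were below 0, from -3.17 for Mcpt2 to -0.80 for Hdc, with a median of -2.12 against 0.05 over all genes. In 6 of the 8 every DSS array was below every AOM array, which 10.7% of all genes showed. Within the slide that holds the DSS arrays and AOM replicate 3, Mcpt1 was -3.15, Mcpt2 -3.82 and Cma1 -2.37. Cma1 was called without AOM replicate 1 (-2.26, adjusted p = 0.0372). These comparisons share arrays with those above.

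Among the members, Mcpt1 and Mcpt4 were the most alike, with r = 0.989 over the 12 arrays and 0.996 after group means were removed, and each was the other's nearest of 19085 genes. The files used here give no probe sequences, so whether the probes of these related genes share signal was not tested. Mcpt2 followed Mcpt1 with r = 0.947. Cpa3 and Fcer1a had r = 0.910 over the arrays and 0.842 after group means were removed. After group means were removed, Cma1 had r = -0.303 to Mcpt1, -0.243 to Mcpt2 and -0.372 to Mcpt4. Its r was then 0.013 to Cpa3, 0.008 to Fcer1a, 0.371 to Tpsb2 and 0.358 to Hdc. These values describe 12 arrays that share group, slide and tissue makeup. On AOM/DSS replicate 2, the difference of Cma1 minus Mcpt1, less its control mean, was 3.82, against 0.27 and 0.69 on AOM/DSS replicates 1 and 3, a comparison chosen after the values were seen. The nearest genes outside the 10 were Gp1ba for Mcpt1 (r = 0.887), 1700052K11Rik for Mcpt2 (r = 0.924), Haus8 for Mcpt4 (r = 0.873), Pusl1 for Cma1 (r = 0.938) and Fzd2 for Tpsb2 (r = 0.818).

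**Figure D4:**
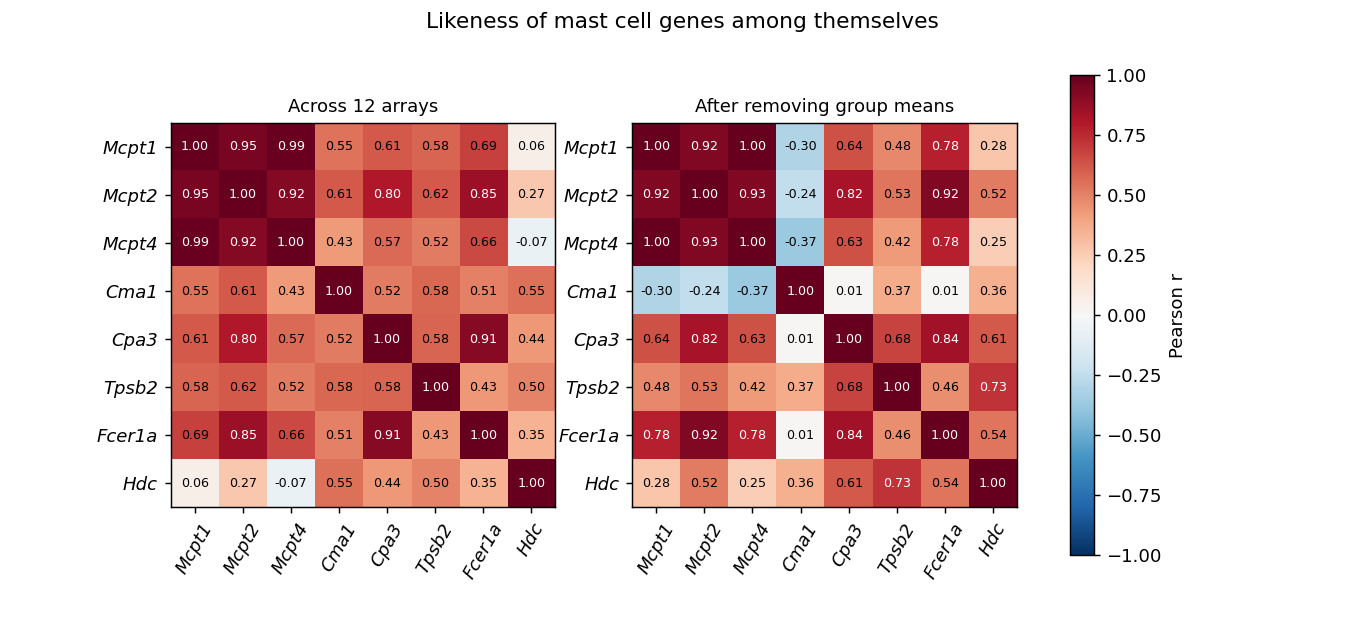
Pearson r between 8 mast cell genes over the 12 arrays (left) and after removing group means (right), both axes listing the genes and colour running from -1 to 1. Mcpt1, Mcpt2 and Mcpt4 form the most alike block in both panels, and Cma1 is at -0.303 with Mcpt1 on the right.

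Other mast cell genes went both ways. Of 28 listed genes, 22 were tested, and 3 were higher and 7 lower in AOM/DSS against control (median -0.26, against 0.03 over all genes), 5 higher and 1 lower in AOM against control (median 0.39), and 2 higher and 9 lower in AOM/DSS against AOM (median -0.59). Over all genes 34.7%, 32.5% and 37.1% were called in these 3 comparisons, with 17.2%, 14.8% and 19.5% higher and 17.4%, 17.7% and 17.6% lower. In AOM against control the 6 of 22 lie below the 32.5% of both directions, while the 5 higher lie above 14.8%. The 9 lower in AOM/DSS against AOM lie above 17.6%. No test was made of these counts, and Cd200r3, which entered only through AOM/DSS, is among the 2 higher there. Mcpt9, another chymase gene of the locus, was -4.66, -6.61 and -5.35 in AOM/DSS, 0.60, -3.48 and -1.60 in AOM, -2.73, -2.49 and -3.69 in DSS, and -2.08, -1.74 and -0.75 in control. Its AOM/DSS arrays were below all others, and it fell by 4.02 ± 0.88 against control (limma adjusted p = 0.00602) and by 4.05 ± 0.88 against AOM (adjusted p = 0.00926), with 1 AOM/DSS array well above background. With slide as a block these were -3.82 (adjusted p = 0.108) and -4.20 (0.0494), and the second was -2.31 with normexp (0.0597). The tryptase gene Tpsg1 fell by 4.32 ± 0.48 against control (adjusted p = 0.000156). Rgs13, a regulator of G-protein signalling, was not well above background on any AOM/DSS array and was at least 9.94-fold lower than in control (adjusted p = 0.00183). Il1rl1, the IL-33 receptor gene of mast cells and other cells, was higher by 5.54 ± 1.13 in AOM/DSS (adjusted p = 0.00415) and by 4.86 ± 1.13 in AOM (adjusted p = 0.0139), both against control, where it was well above background on 2 of 3 arrays. With normexp these were 2.59 (adjusted p = 0.0649) and 2.01 (0.126), and the call in AOM was also lost without AOM replicate 2 (4.52, adjusted p = 0.053) or control replicate 1 (4.08, adjusted p = 0.053) and with slide as a block (0.275).

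Signals to mast cells were tested for 23 of 30 listed genes. In AOM/DSS against control 8 were higher and 2 lower, in AOM against control 5 were higher and none lower, and in AOM/DSS against AOM 2 were higher and 6 lower. These are 10, 5 and 8 of 23, beside 34.7%, 32.5% and 37.1% of all genes, so the counts over both directions say little about this list. By direction, 17.2%, 14.8% and 19.5% of all genes were higher and 17.4%, 17.7% and 17.6% lower. The 8 and 5 higher against control and the 6 lower against AOM lie above those shares. The counts in the opposite directions lie below them. No test was made of these counts. Kitl, which encodes stem cell factor, was 2.12, 1.16 and 1.48 in AOM/DSS, -1.27, -0.50 and -0.36 in AOM, -0.39, -0.83 and -0.64 in DSS, and -0.20, 0.03 and 0.32 in control. Its AOM/DSS arrays were above all others, and it was higher by 2.30 ± 0.31 against AOM (limma adjusted p = 0.00163) and by 1.54 ± 0.31 against control (adjusted p = 0.00403). With slide as a block the values were 2.53 (adjusted p = 0.0131) and 1.43 (0.0787). Il33, the ligand of the Il1rl1 receptor, was higher by 3.64 ± 0.86 in AOM/DSS against control (adjusted p = 0.00866), where 1 control array was well above background. It was 4.35 with slide as a block (adjusted p = 0.0564) and 1.50 with normexp (0.145).

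Of 10 listed genes of histamine and serotonin handling 7 were tested, and 5 of the 7 were lower in AOM/DSS against control (median -2.13), where 17.4% of all genes were called lower. The other two were not called: Hnmt was -0.29 and Hrh3, not well above background on any control array, was 0.52. In AOM against control 2 of the 7 were lower, where 17.7% of all genes were. Slc6a4, the serotonin transporter gene, fell by 5.44 ± 0.30 in AOM/DSS against control (limma adjusted p = 4.92e-06). Hrh1, a histamine receptor gene, fell by 3.17 ± 0.38 (adjusted p = 0.00024), and Aoc1, which encodes the histamine-degrading diamine oxidase, fell by 2.54 ± 0.41 (adjusted p = 0.00115). Epithelial markers were lower beside them, 7 of 9 called, with sums of 679 to 819 in AOM/DSS and 1274 to 2422 in control, and the part of epithelium in these values was not tested.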

How the data were processed

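The authors deposited 12 one-colour Agilent scanner files whose intensity values were written, per the file headers, by Feature Extraction 10.7.3.1. The processed signal in them is an intensity after background subtraction, per the file headers, and was not normalized between arrays. The authors also deposited a series matrix of log2 values, whose sorted columns differ by at most 0.000945, and these were used as an alternative.

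Processed intensity was logged (base 2), and the 75th percentile over the 41174 non-control probes of the same array was subtracted. This percentile was first taken over spots. It was changed to probes after the results of that first run had been seen, to match earlier processing of these data, and both are reported in the closing section. Outlier spots were left out and spots of a probe were averaged. A probe entered when 1 or more groups had it well above background on their 3 arrays, and a gene was its entering probe of highest mean. Symbols came from the RefSeq accession. Group means were fitted over all 12 arrays with limma 3.58.1 in R 4.3.3 (8 residual and 2.63 prior degrees of freedom), with Benjamini-Hochberg adjustment over 19145 genes. Where a group has no array well above background for a gene, the fold is a bound, with each such array set to the higher of the gene's signal and that of its dimmest probe above background. The procedure was tested on simulated data. The number of arrays limits the precision.

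Members, lists and tests were chosen with earlier results of these data known. Named genes are the 10 members, up to 4 called genes of largest change per list and comparison (not all are printed), and the 3 most similar genes per member, of which those of Cpa3 and Fcer1a are not reported here. The alternatives were other background correction, scaling, filters and probe rules, slide and replicate blocks, and leaving out each array. The count without control replicate 3 and DSS replicate 1, the percentile over spots, within-slide values and the differences between genes of 1 array were added after seeing the data.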

Additional observations from a re-analysis of the deposited data

How the results depend on the processing

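Of 1134 values of 48 gene results (8 genes, 6 comparisons) under alternatives, 39 lost a call, 17 gained one and 0 of the called values changed sign. Median scaling gave 1 mast cell gene called in AOM/DSS against control and 5 in AOM/DSS against AOM, beside 30.7% and 39.5% of all genes. A filter on all 12 arrays left 5 of the genes, with 1 called in AOM/DSS against control and 1 in AOM/DSS against DSS. Slide as a block gave 1 in AOM/DSS against control, 0 in AOM against control, 1 in AOM/DSS against AOM and 0 in AOM/DSS against DSS. The share of all genes called also fell with it, to 11.6%, 0.0209%, 14.9% and 2.42% in these comparisons. Whether replicate numbers pair the arrays was not settled. Deviations correlated above 0.1 in 8 of 18 same-number pairs (range -0.274 to 0.249), and pairs with different numbers ran from -0.252 to 0.382. The replicate block gave 1 in AOM/DSS against control. The shares of all genes called with this block and with the filter on all 12 arrays are not reported here. Leaving out 1 array gave 1 to 2 called genes in AOM/DSS against control, 2 to 5 in AOM against control, 0 to 1 in DSS against control, 2 to 4 in AOM/DSS against AOM, 1 to 3 in AOM/DSS against DSS and 0 to 1 in DSS against AOM. Without control replicate 3 and DSS replicate 1 together, a setting chosen after seeing the data, 1 was called in DSS against control and 4 in AOM/DSS against DSS. The share of all genes called in that joint setting is not reported here. With DSS replicate 1 alone left out, 16.9% and 46.7% of all genes were called in these comparisons. With control replicate 3 alone left out, the shares were 7.09% and 37.4%. The causes were not tested.

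The 75th percentile was taken over spots in a first run and over probes after its results were seen. Over spots, 0 genes were called in DSS against AOM (smallest adjusted p = 0.053), against 2 over probes (0.0486), and 58 against 56 in DSS against control. The mast cell genes called were 2, 4, 0, 3, 2 and 0 in the 6 comparisons with either base. Median scaling moved the median of all genes to -0.12 in AOM/DSS against control, 0.16 in AOM against control, -0.36 in AOM/DSS against AOM and -0.18 in AOM/DSS against DSS, and normexp moved it to -0.33, -0.28, -0.13 and -0.28 in the same comparisons. The share of calls that were higher was 33.7% with median scaling in AOM/DSS against AOM, against 52.6% without it. Signal over background limits Ms4a2, and Hdc and Tpsb2 in control.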
